A study of Mus musculus with 17 samples.

Results

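The genes described here are 34 mouse genes of cell-to-matrix adhesion: 12 integrin alpha genes, 8 integrin beta genes, 10 laminin genes, 2 nidogen genes and the 2 basement membrane proteoglycan genes Hspg2 and Agrn. They were chosen by name, with earlier results of these data known. All 34 of the 34 listed symbols were found and reached 1 RPM in at least 1 group, out of 18794 genes at that level and 37576 gene IDs in all. Levels are in RPM, the reads of a gene per 1000000 reads counted. The threshold removed no listed gene, and the genes nearest to it were Itgb6, whose highest group level was 1.44 RPM, Lamb3 at 1.81 RPM and Itga2 at 2.83 RPM. All but 12 were at 1 RPM or more in every group, which leaves 22.

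RNA was sequenced from C57bl/6 mouse embryonic fibroblasts (MEFs) from E13.5 embryos that differed in the gene Usp28, which encodes an enzyme that takes ubiquitin off other proteins. The Ras set had 2 libraries in each of 4 groups: Usp28 -/- cells with the GFP vector pWZL-GFP, Usp28 +/- cells with pWZL-GFP, Usp28 +/+ cells with pWZL-USP28, and Usp28 +/+ cells with pWZL-GFP. All 4 groups also carried HRasG12V, an activated form of the Ras oncogene, from a pBabe vector. The immortalized set had 3 libraries each of Usp28 -/-, Usp28 +/- and Usp28 +/+ cells without Ras or an overexpression vector. Every group of both sets had been immortalized with a retroviral hairpin RNA against p19ARF, a tumour suppressor that restrains cell division, so the +/+ cells were themselves altered. The series text calls the immortalized libraries biological triplicates, but no label names an embryo, so genotype and embryo of origin cannot be told apart. Where libraries of a group were not separate cultures, the p-values measure only the spread between those libraries.

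Integrins are receptors made of an alpha and a beta chain that reach through the cell membrane and tie the matrix outside to the actin skeleton inside. The chain pair sets the ligand: some pairs bind fibronectin or vitronectin, others collagens, and others laminins. Laminins are cross-shaped proteins of an alpha, a beta and a gamma chain that assemble into sheets, and nidogens and proteoglycans join these sheets to collagen IV to form basement membranes. Fibroblasts are known mainly for receptors of fibronectin and collagen, while epithelial, muscle and vessel cells sit on basement membranes.

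Each group holds one summed value per gene, since the deposited tables give comparisons and no single libraries. Whether the library values of 2 groups overlap cannot be seen. The summed depth was 11383000 to 13950000 reads in the Ras groups and 11388000 to 12394000 in the immortalized groups, so that 1 read was worth 0.0717 to 0.0878 RPM. Usp28 itself had 14.8 RPM in Ras -/-, 18.6 in Ras +/-, 26.4 in the +/+ group labelled USP28 and 26.5 in Ras +/+ cells. In the immortalized set it had 13.3 RPM in -/-, 9.96 in +/- and 16.5 in +/+ cells. It was lower in Ras -/- than in Ras +/+ cells (log2 -0.83, adjusted p = 0.00397) and passed the test in none of the other 4 comparisons. Reads of the mouse gene thus remain in the libraries labelled -/- and are not raised in the libraries labelled USP28. The labels give neither the deleted exons nor the species of the inserted sequence. Of 8 fibroblast markers, 7 or 8 were at 1 RPM or more in each group. Thy1 fell short in the Ras groups, at 0 to 0.502 RPM, and had 177 to 289 RPM in the immortalized groups. Transcripts tied to sex differed too: Xist had 0.215 RPM in Ras -/-, 25.5 in Ras +/-, 323 in the USP28-labelled group and 336 in Ras +/+ cells, and the Y-linked Eif2s3y had 22.4 RPM in Ras -/- and at most 0.151 RPM in the other Ras groups. Among immortalized cells Eif2s3y had 14.9 RPM in -/-, 0 in +/- and 18.7 in +/+ cells. Xist was found in all of these groups, at 126 RPM in -/-, 296 in +/- and 89.6 in +/+ cells. It was called higher there in +/- than in +/+ cells (log2 1.73, adjusted p = 2.77e-04). The part of sex in the results was not tested.

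Of the 34 genes, 27 (79.4%) were called against +/+ cells in at least 1 of 5 comparisons, beside 43.3% of the 18794 genes at 1 RPM or more in any group. The members were chosen with earlier results of these data known, and the genes set beside them here and below were not matched for level. The gaps between these shares were therefore not tested. A difference from +/+ was called where the authors' edgeR p-value, adjusted here by the Benjamini-Hochberg method over all genes at a mean of at least 1 RPM, was under 0.05. In Ras -/- cells 27 members passed the level filter, and 7 were higher and 8 lower than in Ras +/+ cells. That is 55.6% of them beside 27.6% of all 15868 genes tested, of which 15.2% were higher and 12.4% lower. In Ras +/- cells 28 passed, and 10 were higher and 8 lower than in Ras +/+ cells, 64.3% beside 34.1% of all genes (17.5% higher, 16.7% lower). The USP28-labelled group had 0 higher and 1 lower of 28, 3.57% beside 1.09% of all genes (0.0907% higher, 0.997% lower). In immortalized -/- cells 2 were higher and 3 lower of 30, 16.7% beside 4.21% of all genes (1.29% higher, 2.93% lower). All 5 of these calls were lost with the dispersion doubled. With folds centred on the median gene the 2 higher members were no longer called, and all genes then split into 146 higher and 568 lower, beside 215 higher and 490 lower as reported. In immortalized +/- cells 8 were higher and 2 lower of 33, 30.3% beside 8.25% of all genes (5.04% higher, 3.21% lower). The median log2 fold over the members tested was 0.01 in Ras -/-, 0.28 in Ras +/-, -0.04 in the USP28-labelled group, 0.01 in immortalized -/- and 0.73 in immortalized +/- cells, while the median over all genes lay between -0.01 and 0.07. Doubling the dispersion also ended the calls of Itga3, Itgb1, Lamc3 and Hspg2 in Ras -/-, of Itga3, Itgav, Itgb5, Itgb8, Lama2 and Hspg2 in Ras +/-, and of Itga3, Lama2, Lama4 and Nid1 in immortalized +/- cells. A low gene passed the level filter only where it was high in 1 group of the pair, so these counts speak of the members tested and not of all members.

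Most markers of mesothelial and epithelial cells were higher in +/- cells. Of 12 such genes, 10 were at 1 RPM or more in Ras +/- cells, where they summed to 3016 RPM, against 1 (8.53 RPM) in Ras -/-, 2 (553 RPM) in the USP28-labelled group and 2 (498 RPM) in Ras +/+ cells. In cells without Ras 10 were at that level in +/- cells (1911 RPM), against 4 (82.5 RPM) in -/- and 4 (74.8 RPM) in +/+ cells. In Ras +/- cells 9 of the 10 tested were called higher and 1, Msln, lower, at 209 RPM in Ras +/- and 425 RPM in Ras +/+ cells. Msln also made up 466 RPM of the sum in the USP28-labelled group. In immortalized +/- cells 8 of 10 tested were called higher and 0 lower. Among the defining genes, Krt5 was at 0 in immortalized -/- and +/- cells, Lrrn4 in Ras -/-, USP28-labelled, Ras +/+ and immortalized +/+ cells, Epcam in USP28-labelled and immortalized +/+ cells, and Krt18 in Ras +/+ cells. The members called higher in +/- cells stand beside this: Itga3, Itgb2, Itgb3, Itgb5, Itgb7, Itgb8, Lamb1, Lamb3, Agrn and Hspg2 in the Ras set, and Itga3, Itga4, Itgb3, Itgb4, Lama1, Lama2, Lamb1 and Nid1 in the immortalized set. So do the members called lower there: Itga6, Itga8, Itga9, Itgav, Itgb1, Lama2, Lamb2 and Nid2 in the Ras set, and Lama4 and Nid2 in the immortalized set. Itgb2 and Lamb3 in the Ras set, and Itga4 and Lama1 in the immortalized set, passed the level filter only through their +/- level. No lower call was open to these genes. Itga8 in the Ras set passed the filter only through its +/+ level, so no higher call was open to it. In bulk RNA more cells of a type and more RNA per cell cannot be told apart, and the part of these cells in the results was not tested. Fibroblast markers summed to 15311 RPM in Ras -/-, 12687 in Ras +/-, 7572 in the USP28-labelled group and 10151 in Ras +/+ cells, and to 28116 RPM in immortalized -/-, 30550 in +/- and 36846 in +/+ cells. Col1a1 alone was 7146 RPM of the sum in Ras +/- and 5149.9 RPM in Ras +/+ cells. In Ras +/- cells 3 of 7 tested, Pdgfrb, Col1a2 and Col3a1, were called lower and 2, S100a4 and Vim, higher. In Ras -/- cells 4 of 7, Col3a1, Pdgfra, Pdgfrb and Col1a1, were called higher and 0 lower. Col1a1 alone was called, lower, in the USP28-labelled group. In immortalized -/- cells 3 of 8, Pdgfra, Col3a1 and Pdgfrb, were called lower and 0 higher, and in +/- cells Pdgfra alone was called, lower. Skeletal muscle markers summed to at most 4.96 RPM except in immortalized +/- cells, at 97.9 RPM, of which Des alone was 97.4 RPM, with Myf5, Myog and Myh3 at 0. Endothelial markers summed to 4.23 to 6.18 RPM in the Ras groups and 13.8 to 19.7 RPM in the immortalized groups.

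**Figure D1:**
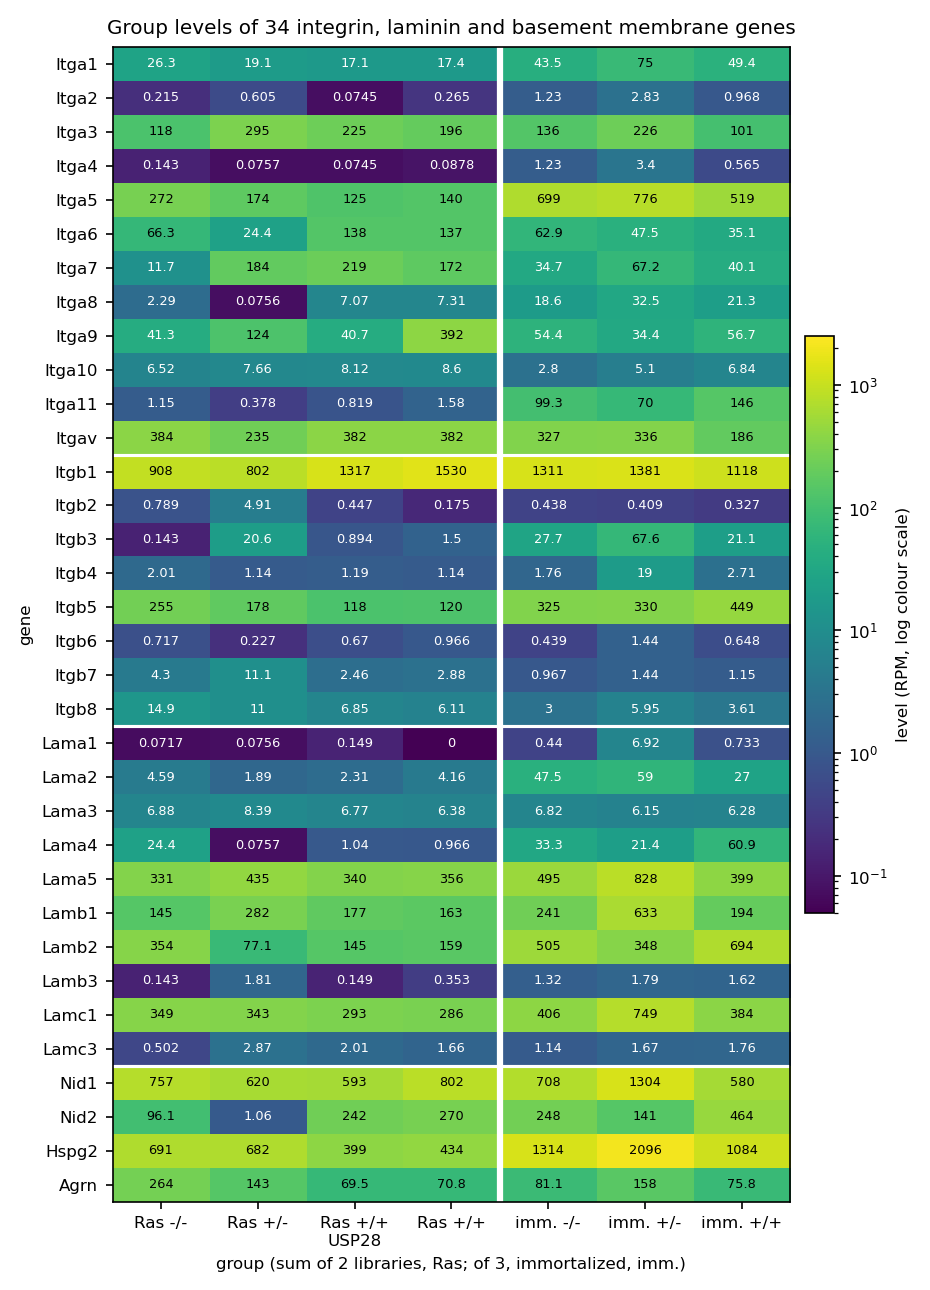
Level of each of the 34 genes (rows, grouped as integrin alpha, integrin beta, laminin, and nidogen or proteoglycan) in each of the 7 groups (columns), in RPM on a logarithmic colour scale with the value printed. Nid2 stands at 1.06 RPM in Ras +/- and at 270 RPM in Ras +/+ cells, and Itga9 at 41.3 RPM in Ras -/-, 40.7 RPM in the USP28-labelled group and 392 RPM in Ras +/+ cells.

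Among the alpha chains of laminin receptors, Itga7 had the largest fold. Itga7, best known from muscle, had 11.7 RPM in Ras -/-, 184 in Ras +/-, 219 in the USP28-labelled group and 172 in Ras +/+ cells. Ras -/- cells thus stood alone, 14.7-fold below Ras +/+ cells (log2 -3.88, standard error (SE) 0.24, adjusted p = 1.05e-51). The SE here and below is the one implied by the dispersion behind the deposited p-values. Against Ras +/- cells, Ras -/- cells were lower by as much (log2 -3.97, SE 0.31, adjusted p = 3.54e-34). Without Ras Itga7 had 34.7 RPM in -/-, 67.2 in +/- and 40.1 in +/+ cells, and neither genotype passed the test.

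Itga6, a laminin receptor chain of epithelia and stem cells, fell in both mutant Ras groups. It had 66.3 RPM in Ras -/-, 24.4 in Ras +/-, 138 in the USP28-labelled group and 137 in Ras +/+ cells. The fall was 2.07-fold in Ras -/- (log2 -1.05, SE 0.22, adjusted p = 1.49e-05) and 5.62-fold in Ras +/- cells (log2 -2.49, SE 0.22, adjusted p = 9.55e-26). In the immortalized set the direction in -/- cells was the other way: Itga6 had 62.9 RPM in -/-, 47.5 in +/- and 35.1 in +/+ cells, and only -/- cells passed (log2 0.84, SE 0.26, adjusted p = 0.0382). That call was lost when folds were centred on the median gene.

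Itga3, a further laminin receptor chain, split by genotype. It had 118 RPM in Ras -/-, 295 in Ras +/-, 225 in the USP28-labelled group and 196 in Ras +/+ cells. It was lower in Ras -/- than in Ras +/+ cells (log2 -0.73, SE 0.21, adjusted p = 0.00361) and higher in Ras +/- than in Ras +/+ cells (log2 0.59, SE 0.21, adjusted p = 0.016). Between the mutants, Ras -/- cells lay 2.51-fold below Ras +/- cells (adjusted p = 7.67e-05). Among immortalized cells it had 136 RPM in -/-, 226 in +/- and 101 in +/+ cells, and the +/- cells passed the test (log2 1.16, SE 0.38, adjusted p = 0.0348).

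Itga5 and Itgav were called in few comparisons. Itga5, which pairs with Itgb1 as the main fibronectin receptor, had 272 RPM in Ras -/-, 174 in Ras +/-, 125 in the USP28-labelled group and 140 in Ras +/+ cells. Its 1.94-fold higher level in Ras -/- cells passed (log2 0.95, SE 0.21, adjusted p = 6.84e-05). In cells without Ras it was at 699 RPM in -/-, 776 in +/- and 519 in +/+ cells, with no call. Itgav, the partner of several beta chains in receptors that bind vitronectin and latent TGF-beta, had 384 RPM in Ras -/-, 235 in Ras +/-, 382 in the USP28-labelled group and 382 in Ras +/+ cells. Only Ras +/- cells differed, at 1.63-fold lower (log2 -0.70, SE 0.21, adjusted p = 0.00323). In immortalized cells Itgav had 327 RPM in -/-, 336 in +/- and 186 in +/+ cells. The -/- cells passed there (log2 0.82, SE 0.25, adjusted p = 0.0333), but not once folds were centred on the median gene, and the +/- cells did not pass (log2 0.86, SE 0.38, adjusted p = 0.215).

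Itga9, a receptor chain for tenascin-C and Vcam1, was the single member called in the USP28-labelled group. The gene lies at chr9:118606690-118901003 on the plus strand of GRCm38. It had 41.3 RPM in Ras -/-, 124 in Ras +/-, 40.7 in the USP28-labelled group and 392 in Ras +/+ cells. The +/+ cells stand out as high: Ras -/- cells were 9.48-fold lower (log2 -3.25, SE 0.22, adjusted p = 1.97e-42), Ras +/- cells 3.15-fold lower (log2 -1.66, SE 0.21, adjusted p = 1.35e-13) and USP28-labelled cells 9.62-fold lower (log2 -3.26, SE 0.19, adjusted p = 3.3e-54). All 3 comparisons share the same 2 Ras +/+ libraries. The immortalized levels were 54.4 RPM in -/-, 34.4 in +/- and 56.7 in +/+ cells, with no call. Of the neighbouring genes, Golga4 had 105 RPM in Ras -/-, 60.1 in Ras +/-, 86.0 in the USP28-labelled group and 79.2 in Ras +/+ cells, with no call. Ctdspl had 55.5 RPM in Ras -/-, 34.5 in Ras +/-, 33.0 in the USP28-labelled group and 31.7 in Ras +/+ cells and was called in Ras -/- cells alone (log2 0.81, adjusted p = 0.00256). Neither neighbour was high in Ras +/+ cells.

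Itga8, which pairs with Itgb1 to bind nephronectin, was nearly absent from Ras +/- cells. It had 2.29 RPM in Ras -/-, 0.0756 in Ras +/-, 7.07 in the USP28-labelled group and 7.31 in Ras +/+ cells. The Ras +/- value is 1 read against 83.2 in Ras +/+ cells, a log2 ratio with a 95% counting interval of -11.91 to -4.07 (adjusted p = 1.19e-19). Ras -/- cells were 3.19-fold below Ras +/+ cells (log2 -1.67, SE 0.36, adjusted p = 4.16e-05). Without Ras it had 18.6 RPM in -/-, 32.5 in +/- and 21.3 in +/+ cells, with no call.

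Of the collagen receptor chains, Itga10 alone was called. Itga10, a collagen receptor chain of cartilage, had 2.80 RPM in immortalized -/-, 5.10 in +/- and 6.84 in +/+ cells, and -/- cells were 2.44-fold lower (log2 -1.28, SE 0.39, adjusted p = 0.0231). It lay between 6.52 and 8.6 RPM in the Ras groups, with no call. Chondrocyte markers summed to 111 RPM in immortalized -/-, 108 in +/- and 320 in +/+ cells. In immortalized -/- cells all 4 tested (Col2a1, Comp, Acan and Sox9) were called lower. In immortalized +/- cells 3 of 4 (Comp, Acan and Col2a1) were called lower as well, while Itga10 was not called there (log2 -0.43). The part of such cells in the fall of Itga10 was not tested. Exons of the predicted gene Gm42957 on the same strand cover 33.5% of its exon bases, so reads of the 2 genes may have been shared. Itga11, a collagen receptor chain of fibroblasts, had 99.3 RPM in -/-, 70.0 in +/- and 146 in +/+ immortalized cells and 0.378 to 1.58 RPM in the Ras groups. It was not called where tested. In Ras +/- cells it was under the level filter, with 5 reads against 18 in Ras +/+ cells (log2 -2.06, authors' own adjusted p = 0.0225). The deposited tables were normalized apart, so the gap in Itga11 between the sets was not tested. Itga4, which binds fibronectin and Vcam1, had 1.23 RPM in immortalized -/-, 3.40 in +/- and 0.565 in +/+ cells, and +/- cells were 6.02-fold higher (log2 2.59, SE 0.69, adjusted p = 0.00224). It was under the filter in the Ras set, with 1 or 2 reads in each group.

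**Figure D2:**
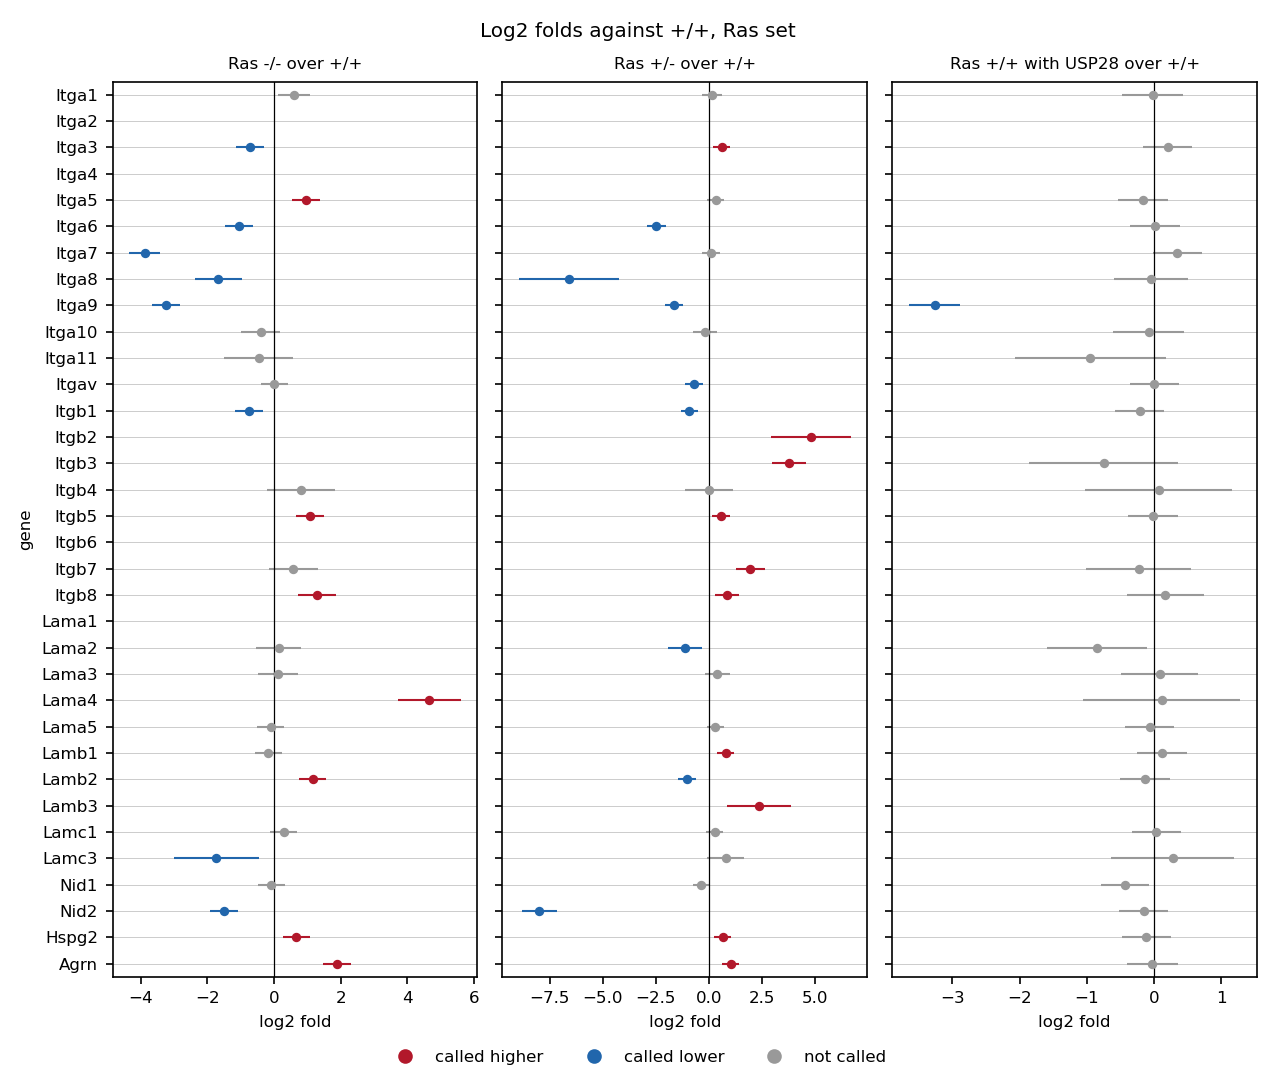
Log2 fold of each gene over Ras +/+ cells (horizontal axes, scaled separately) in Ras -/-, Ras +/- and USP28-labelled +/+ cells. Points are folds, bars are 95% intervals from the implied SE, red and blue mark calls, and genes under the level filter have no point. In the right panel Itga9 alone is called, at -3.26.

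Among the beta chains, Itgb1 was lower and Itgb5 higher in both mutant Ras groups. Itgb1, the beta chain of most matrix receptors, had 908 RPM in Ras -/-, 802 in Ras +/-, 1317 in the USP28-labelled group and 1530 in Ras +/+ cells. It was lower in Ras -/- (log2 -0.75, SE 0.21, adjusted p = 0.00198) and in Ras +/- (log2 -0.93, SE 0.21, adjusted p = 4.37e-05) than in Ras +/+ cells. Itgb5, the vitronectin receptor chain that pairs with Itgav, had 255 RPM in Ras -/-, 178 in Ras +/-, 118 in the USP28-labelled group and 120 in Ras +/+ cells. It was higher in Ras -/- (log2 1.09, SE 0.21, adjusted p = 3.99e-06) and in Ras +/- (log2 0.57, SE 0.21, adjusted p = 0.0233) than in Ras +/+ cells. On a scale of RPM per kb of exon, Itgb1 made up 74.7% of the summed beta chains in Ras -/-, 76.5% in Ras +/-, 90.1% in the USP28-labelled group and 91.3% in Ras +/+ cells. Itgb5 made up 24.1% in Ras -/-, 19.5% in Ras +/-, 9.28% in the USP28-labelled group and 8.20% in Ras +/+ cells. Among immortalized cells Itgb1 had 1311 RPM in -/-, 1381 in +/- and 1118 in +/+ cells. Itgb5 there had 325 RPM in -/-, 330 in +/- and 449 in +/+ cells, and neither gene was called.

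The start regions of these 2 genes are shown because the genes moved in opposite directions. Each is the RefSeq window from 250 bases before to 50 bases after the start, plus strand of GRCm38.p6, and capitals mark GGGCGG, the GC box bound by Sp family factors, or its reverse complement. Itgb5 lies at chr16:33829415-33829714 and holds 3 GC boxes, and Itgb1 at chr8:128685404-128685703 holds 1.
Itgb5: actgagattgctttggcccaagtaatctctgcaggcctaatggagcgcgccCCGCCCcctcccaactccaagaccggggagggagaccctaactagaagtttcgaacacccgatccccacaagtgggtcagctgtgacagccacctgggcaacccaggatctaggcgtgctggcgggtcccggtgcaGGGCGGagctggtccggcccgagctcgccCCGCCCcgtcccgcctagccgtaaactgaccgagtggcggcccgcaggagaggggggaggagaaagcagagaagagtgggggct
Itgb1: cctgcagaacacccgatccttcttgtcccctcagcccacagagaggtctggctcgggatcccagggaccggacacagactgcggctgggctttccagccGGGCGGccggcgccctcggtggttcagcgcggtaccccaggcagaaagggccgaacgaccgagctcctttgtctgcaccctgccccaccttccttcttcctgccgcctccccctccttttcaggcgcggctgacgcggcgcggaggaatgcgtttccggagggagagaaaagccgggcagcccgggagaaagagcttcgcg
Both windows are rich in G and C, at 65.7% for Itgb5 and 67.3% for Itgb1. The table held 27 windows for 23 of the 34 genes, and 7 of them, of Lamb3, Itgb6, Agrn, Itga9, Lama2 and Itga3, lie over 1000 bases from the gene's annotated start and were left aside. A GC box on either strand stood in 12 of the other 20 windows, 60%, and in 35.7% of all 32851 windows in the table, which were not screened for distance. TGANTCA, the AP-1 site, was in 0 of 20 and in 7.81% of all windows, and the TATA box TATAAA in 0 of 20 and in 13.6% of all windows. With the 7 distant windows counted in, TGANTCA stood in 2 of 27, in windows of Itga9 and Itga3. These matches describe letters and do not show that a factor binds.

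Itgb3 gave the widest spread among the beta chains. Itgb3, a chain of vitronectin receptors that also occurs in platelets, had 0.143 RPM in Ras -/-, 20.6 in Ras +/-, 0.894 in the USP28-labelled group and 1.5 in Ras +/+ cells. Ras +/- cells stood 13.7-fold above Ras +/+ cells (log2 3.78, SE 0.41, adjusted p = 1.46e-24). Ras -/- against Ras +/+ cells was under the level filter, with 2 reads against 17.1 (log2 -3.39, authors' own adjusted p = 0.00583). Ras -/- cells had 2 reads against 273.1 in Ras +/- cells, a log2 ratio with a counting interval of -10.22 to -5.30 (adjusted p = 3.01e-11). In the immortalized set Itgb3 had 27.7 RPM in -/-, 67.6 in +/- and 21.1 in +/+ cells, and +/- cells were again higher (log2 1.68, SE 0.40, adjusted p = 6.43e-04).

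The remaining beta chains were low. Itgb8, which with Itgav activates latent TGF-beta, had 14.9 RPM in Ras -/-, 11 in Ras +/-, 6.85 in the USP28-labelled group and 6.11 in Ras +/+ cells, and both Ras -/- (log2 1.29, SE 0.29, adjusted p = 5.62e-05) and Ras +/- cells (log2 0.84, SE 0.29, adjusted p = 0.0125) were higher. Itgb7, a lymphocyte chain, had 4.30 RPM in Ras -/-, 11.1 in Ras +/-, 2.46 in the USP28-labelled group and 2.88 in Ras +/+ cells. Ras +/- cells were higher (log2 1.95, SE 0.34, adjusted p = 5.98e-08). Itgb2, the chain shared by leukocyte integrins, had 0.789 RPM in Ras -/-, 4.91 in Ras +/-, 0.447 in the USP28-labelled group and 0.175 in Ras +/+ cells. That is 65 reads in Ras +/- against 2 in Ras +/+ cells, with a counting interval of 2.89 to 7.88 on the log2 scale (adjusted p = 4.64e-12). Leukocyte markers, 2 or 3 of 6 at 1 RPM or more, summed to 12.3 RPM in Ras -/-, 15.4 in Ras +/-, 11.3 in the USP28-labelled group and 11.6 in Ras +/+ cells. Cd68, a macrophage marker, was called higher in Ras +/- cells, at 5.67 RPM in Ras +/- and 1.41 RPM in Ras +/+ cells. Csf1r, the largest part of these sums, was not called, at 9.09 RPM in Ras +/- and 8.96 RPM in Ras +/+ cells. Adgre1 was under the level filter, at 0.377 RPM in Ras +/- and 1.05 RPM in Ras +/+ cells. Ptprc, which marks nearly all leukocytes, had 0 reads in Ras -/- and USP28-labelled cells and 1 read in Ras +/- and in Ras +/+ cells.

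Itgb4, which joins with Itga6 in the hemidesmosomes of epithelia, was called in immortalized +/- cells. It had 1.76 RPM in immortalized -/-, 19 in +/- and 2.71 in +/+ cells, 7-fold higher in +/- than in +/+ cells (log2 2.81, SE 0.46, adjusted p = 6.76e-08). Against +/- cells, -/- cells were 10.8-fold lower (adjusted p = 2.3e-07). In the Ras set it had 2.01 RPM in -/- and 1.14 to 1.19 RPM in the other groups, with no call. Itgb6, an epithelial chain, was at most 1.44 RPM. Against +/+ it passed the level filter in immortalized +/- cells alone, with no call.

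**Figure D3:**
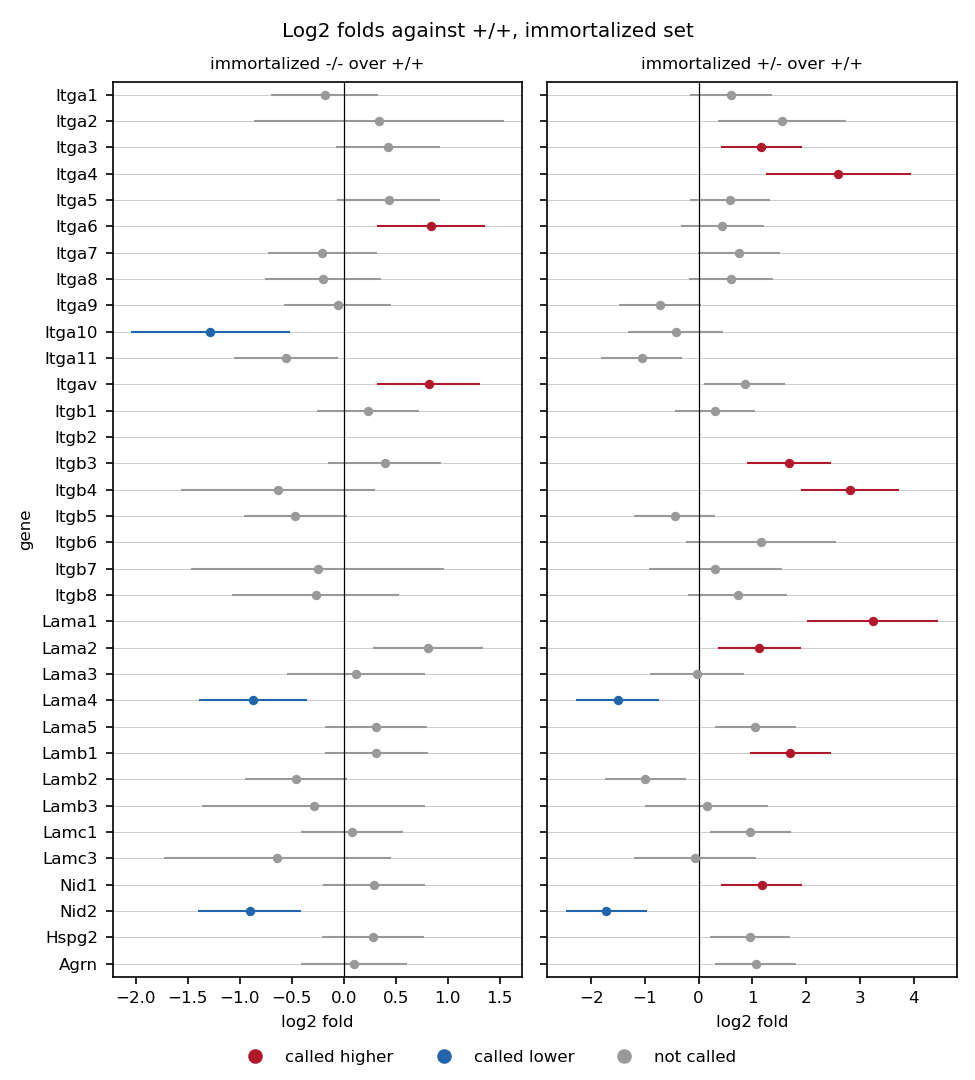
Log2 fold of each gene over immortalized +/+ cells in immortalized -/- and +/- cells (horizontal axes, scaled separately). Points are folds, bars are 95% intervals from the implied SE, red and blue mark calls, and genes under the level filter have no point. Lama1 in +/- cells is farthest from 0, at 3.24.

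Lama4 was the laminin alpha chain with the largest fold. Lama4, a chain of the basement membranes of vessels and muscle, had 24.4 RPM in Ras -/-, 0.0757 in Ras +/-, 1.04 in the USP28-labelled group and 0.966 in Ras +/+ cells. Ras -/- cells were high, 25.2-fold above Ras +/+ cells (log2 4.66, SE 0.48, adjusted p = 4.8e-33) and with 339.9 reads against 1 in Ras +/- cells (counting interval of the log2 ratio 5.85 to 13.64, adjusted p = 3.81e-09). Ras +/- against Ras +/+ cells was under the level filter, with 1 read against 11 (log2 -3.67, authors' own adjusted p = 0.0346). Among immortalized cells the -/- cells lay below the +/+ cells instead: Lama4 had 33.3 RPM in -/-, 21.4 in +/- and 60.9 in +/+ cells. It was lower there in -/- (log2 -0.87, SE 0.27, adjusted p = 0.0295) and in +/- cells (log2 -1.51, SE 0.40, adjusted p = 0.00278).

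Lama1, the laminin alpha chain of the early embryo, reached 1 RPM in 1 group. It had 0.440 RPM in immortalized -/-, 6.92 in +/- and 0.733 in +/+ cells, 9.44-fold higher in +/- than in +/+ cells (log2 3.24, SE 0.62, adjusted p = 1.6e-06). Ras libraries held 0 to 2 reads of it. Lama2, the chain of muscle basement membrane, had 4.59 RPM in Ras -/-, 1.89 in Ras +/-, 2.31 in the USP28-labelled group and 4.16 in Ras +/+ cells, and was lower in Ras +/- cells (log2 -1.14, SE 0.41, adjusted p = 0.0225). In immortalized cells it had 47.5 RPM in -/-, 59.0 in +/- and 27.0 in +/+ cells. The +/- cells were just past the threshold (log2 1.13, SE 0.39, adjusted p = 0.0488), a call lost without the level filter and under 5 other settings, and -/- cells just missed it (log2 0.81, SE 0.27, adjusted p = 0.0511). Lama3, the epidermal chain, lay between 6.15 and 8.39 RPM in all 7 groups and passed nowhere.

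Lama5 and Lamc1, the alpha and gamma chains of the most widespread laminins, were high everywhere and passed no test. Lama5 had 331 RPM in Ras -/-, 435 in Ras +/-, 340 in the USP28-labelled group and 356 in Ras +/+ cells. It had 495 RPM in immortalized -/-, 828 in +/- and 399 in +/+ cells, and the +/- cells missed the threshold (log2 1.05, SE 0.38, adjusted p = 0.0693). Lamc1 ranged from 286 RPM in Ras +/+ to 749 RPM in immortalized +/- cells. Lamc3, a minor gamma chain, had 0.502 RPM in Ras -/-, 2.87 in Ras +/-, 2.01 in the USP28-labelled group and 1.66 in Ras +/+ cells. Its fall in Ras -/- cells (7 reads against 18.9, log2 -1.73, SE 0.65, adjusted p = 0.0377) was lost without the level filter and with the authors' own adjusted p.

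The 2 main beta chains of laminin were called in opposite directions against +/+ in Ras +/- cells alone. Lamb1, the beta chain of the commonest laminins, had 145 RPM in Ras -/-, 282 in Ras +/-, 177 in the USP28-labelled group and 163 in Ras +/+ cells, and was higher in Ras +/- cells (log2 0.79, SE 0.21, adjusted p = 8.94e-04). In Ras -/- cells Lamb1 was not called (log2 -0.17). Lamb2, the beta chain of nerve-muscle synapses and kidney filters, had 354 RPM in Ras -/-, 77.1 in Ras +/-, 145 in the USP28-labelled group and 159 in Ras +/+ cells. It was 2.23-fold higher in Ras -/- (log2 1.16, SE 0.21, adjusted p = 6.81e-07) and 2.06-fold lower in Ras +/- than in Ras +/+ cells (log2 -1.04, SE 0.21, adjusted p = 8.38e-06). Directly compared, Ras -/- cells had 4.59 times as much Lamb2 as Ras +/- cells (adjusted p = 3.9e-12) and less Lamb1 (log2 -0.96, SE 0.30, adjusted p = 0.00748), the Lamb1 call being lost with the dispersions doubled. Among immortalized cells Lamb1 had 241 RPM in -/-, 633 in +/- and 194 in +/+ cells, and was 3.25-fold higher in +/- than in +/+ cells (log2 1.70, SE 0.38, adjusted p = 3.35e-04). Lamb2 had 505 RPM in -/-, 348 in +/- and 694 in +/+ cells, with no call in -/- (log2 -0.46, SE 0.25, adjusted p = 0.398) or +/- cells (log2 -0.99, SE 0.38, adjusted p = 0.0999).

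The start regions of this pair differ in composition and are given for that reason, from the same RefSeq table and with the same marking. Lamb2 lies at chr9:108479612-108479911 and Lamb1 at chr12:31265043-31265342, both on the plus strand.
Lamb2: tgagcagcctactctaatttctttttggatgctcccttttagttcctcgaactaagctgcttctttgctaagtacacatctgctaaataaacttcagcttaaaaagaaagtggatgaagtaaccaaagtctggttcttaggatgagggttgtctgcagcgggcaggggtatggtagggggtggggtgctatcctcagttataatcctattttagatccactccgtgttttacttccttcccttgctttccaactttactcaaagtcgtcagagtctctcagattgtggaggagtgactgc
Lamb1: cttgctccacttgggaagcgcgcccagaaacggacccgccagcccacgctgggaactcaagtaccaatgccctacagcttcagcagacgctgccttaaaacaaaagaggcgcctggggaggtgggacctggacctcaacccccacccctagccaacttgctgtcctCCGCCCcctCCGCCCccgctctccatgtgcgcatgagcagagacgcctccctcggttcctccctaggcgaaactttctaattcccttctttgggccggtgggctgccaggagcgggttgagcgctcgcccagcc
The Lamb1 window is 63.7% G or C with 2 GC boxes close together, and the Lamb2 window is 44% G or C with none. None of the 4 windows shown holds TGANTCA. A window without a match says nothing about a factor.

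Per kb of exon, the shares of these 2 genes in the laminin transcripts differed between groups, and so did those of Lama5 and Lamc1. Lama5 had 19.7% in Ras -/- and 31.2% in Ras +/- cells, and Lamc1 20.8% in immortalized +/+ and 31.1% in immortalized +/- cells. Lamb2 was 39.6% of the summed laminin RPM per kb in Ras -/-, 10.4% in Ras +/-, 22.0% in the USP28-labelled group and 23.8% in Ras +/+ cells. Lamb1 was 9.95% in Ras -/-, 23.2% in Ras +/-, 16.5% in the USP28-labelled group and 15.0% in Ras +/+ cells. In immortalized cells Lamb2 was 40.2% in -/-, 19.6% in +/- and 51.1% in +/+ cells, and Lamb1 11.8% in -/-, 21.9% in +/- and 8.79% in +/+ cells. In both sets the +/- cells thus had more Lamb1 than Lamb2 per kb, and the -/- and +/+ cells more Lamb2. Lama5 was 90.8% to 97.7% of the alpha chains in the Ras groups and 82.6% to 91.6% in the immortalized groups. Lamb3, the epidermal beta chain, had 0.143 RPM in Ras -/-, 1.81 in Ras +/-, 0.149 in the USP28-labelled group and 0.353 in Ras +/+ cells and was higher in Ras +/- cells (log2 2.36, SE 0.77, adjusted p = 0.00743).

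**Figure D4:**
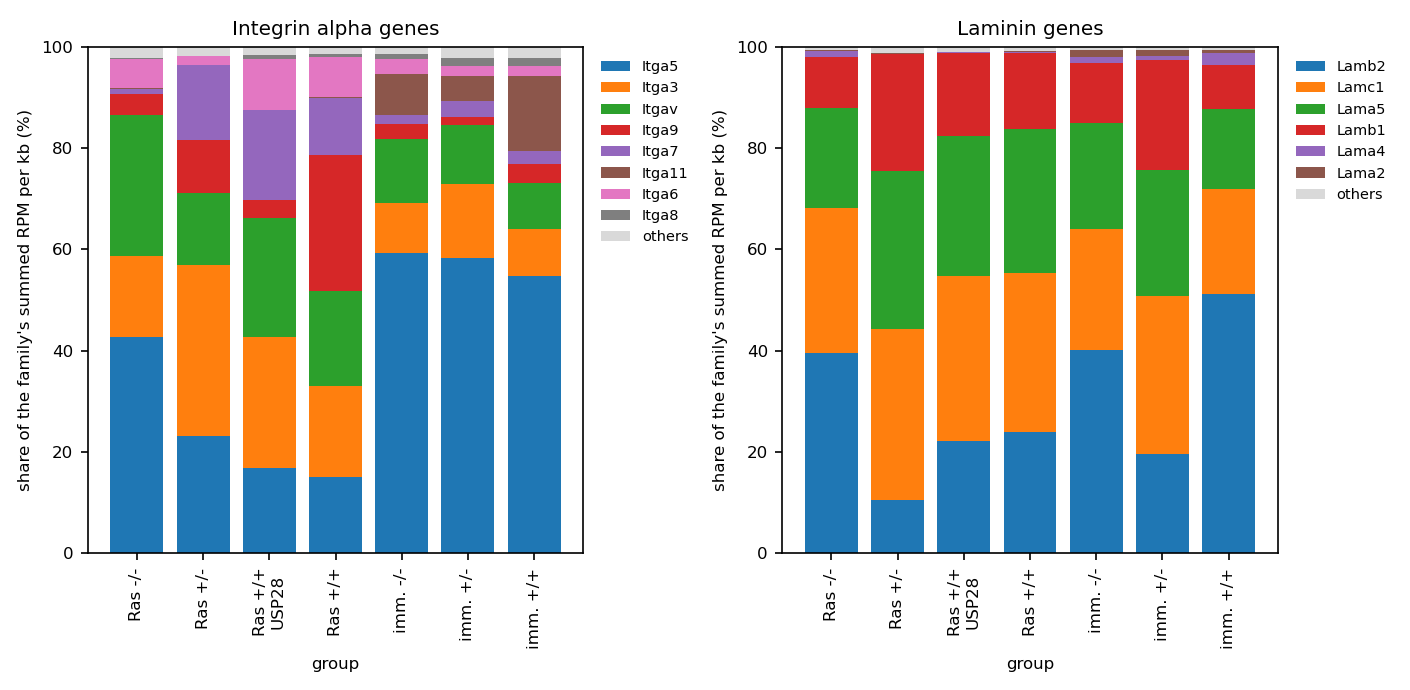
Share (%) of each gene in the summed RPM per kb of exon of the integrin alpha genes (left) and of the laminin genes (right) in each group, Ras groups first and immortalized (imm.) groups after them. Itga5 is 42.8% of the alpha chains in Ras -/- and 15.0% in Ras +/+ cells, and Lamb2 is 39.6% of the laminins in Ras -/-, 10.4% in Ras +/- and 23.8% in Ras +/+ cells.

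On the same per-length scale the leading integrin alpha chain differed between groups. Itga5 led in Ras -/- cells with 42.8% of the summed RPM per kb, Itga3 in Ras +/- cells with 33.8%, Itga3 in the USP28-labelled group with 26.0% and Itga9 in Ras +/+ cells with 26.9%. In all 3 immortalized groups Itga5 led, with 59.2% in -/-, 58.2% in +/- and 54.8% in +/+ cells. These shares have no error, because the files hold no single libraries, and they depend on the exon length used. In plain RPM Itgav led instead in Ras -/- cells (384 RPM, Itga5 272) and in the USP28-labelled group (382 RPM, Itga3 225). In the other groups the leading gene was the same on both scales.

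Nid2 had the largest fold change of the members tested against +/+. Nidogens bridge laminin and collagen IV, and cells often make both Nid1 and Nid2. Nid2 had 96.1 RPM in Ras -/-, 1.06 in Ras +/-, 242 in the USP28-labelled group and 270 in Ras +/+ cells. In Ras +/- cells that is 14 reads against 3072.7 in Ras +/+ cells, 255-fold lower (log2 -8.00, SE 0.43, adjusted p = 3.75e-120). Ras -/- cells were 2.81-fold below Ras +/+ cells (log2 -1.49, SE 0.21, adjusted p = 1.03e-10) and 90.9-fold above Ras +/- cells (log2 6.46, SE 0.48, adjusted p = 1.04e-38). In cells without Ras the order was the same with smaller steps: 248 RPM in -/-, 141 in +/- and 464 in +/+ cells. Both -/- (log2 -0.90, SE 0.25, adjusted p = 0.0123) and +/- cells (log2 -1.72, SE 0.38, adjusted p = 3.02e-04) were lower than +/+ cells. Nid2 was thus called lower in all 4 comparisons of a mutant genotype with +/+. The comparisons within a set share the same +/+ libraries, and the immortalized -/- call was lost with the dispersion doubled. Exons of Rtraf on the opposite strand cover 8.45% of its exon bases.

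Nid1 did not follow Nid2. It had 757 RPM in Ras -/-, 620 in Ras +/-, 593 in the USP28-labelled group and 802 in Ras +/+ cells, with no call. In immortalized cells it had 708 RPM in -/-, 1304 in +/- and 580 in +/+ cells, and was higher in +/- cells (log2 1.17, SE 0.38, adjusted p = 0.0318). Of the nidogen and proteoglycan RPM per kb, Nid2 was 9.09% in Ras -/-, 0.134% in Ras +/-, 27.9% in the USP28-labelled group and 25.4% in Ras +/+ cells.

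Both proteoglycan genes were higher in the mutant Ras groups. Agrn encodes agrin, which clusters acetylcholine receptors at nerve-muscle synapses and also sits in other basement membranes. It had 264 RPM in Ras -/-, 143 in Ras +/-, 69.5 in the USP28-labelled group and 70.8 in Ras +/+ cells, 3.74-fold higher in -/- (log2 1.90, SE 0.22, adjusted p = 1.7e-16) and 2.02-fold higher in +/- than in +/+ cells (adjusted p = 1.61e-05). Without Ras Agrn had 81.1 RPM in -/-, 158 in +/- and 75.8 in +/+ cells, with no call (+/- log2 1.06, SE 0.39, adjusted p = 0.0714). Hspg2, which encodes perlecan, had 691 RPM in Ras -/-, 682 in Ras +/-, 399 in the USP28-labelled group and 434 in Ras +/+ cells. It was higher in Ras -/- (log2 0.67, SE 0.21, adjusted p = 0.00708) and in Ras +/- cells (log2 0.65, SE 0.21, adjusted p = 0.00656). Immortalized cells had 1314 RPM in -/-, 2096 in +/- and 1084 in +/+ cells, with no call.

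**Figure D5:**
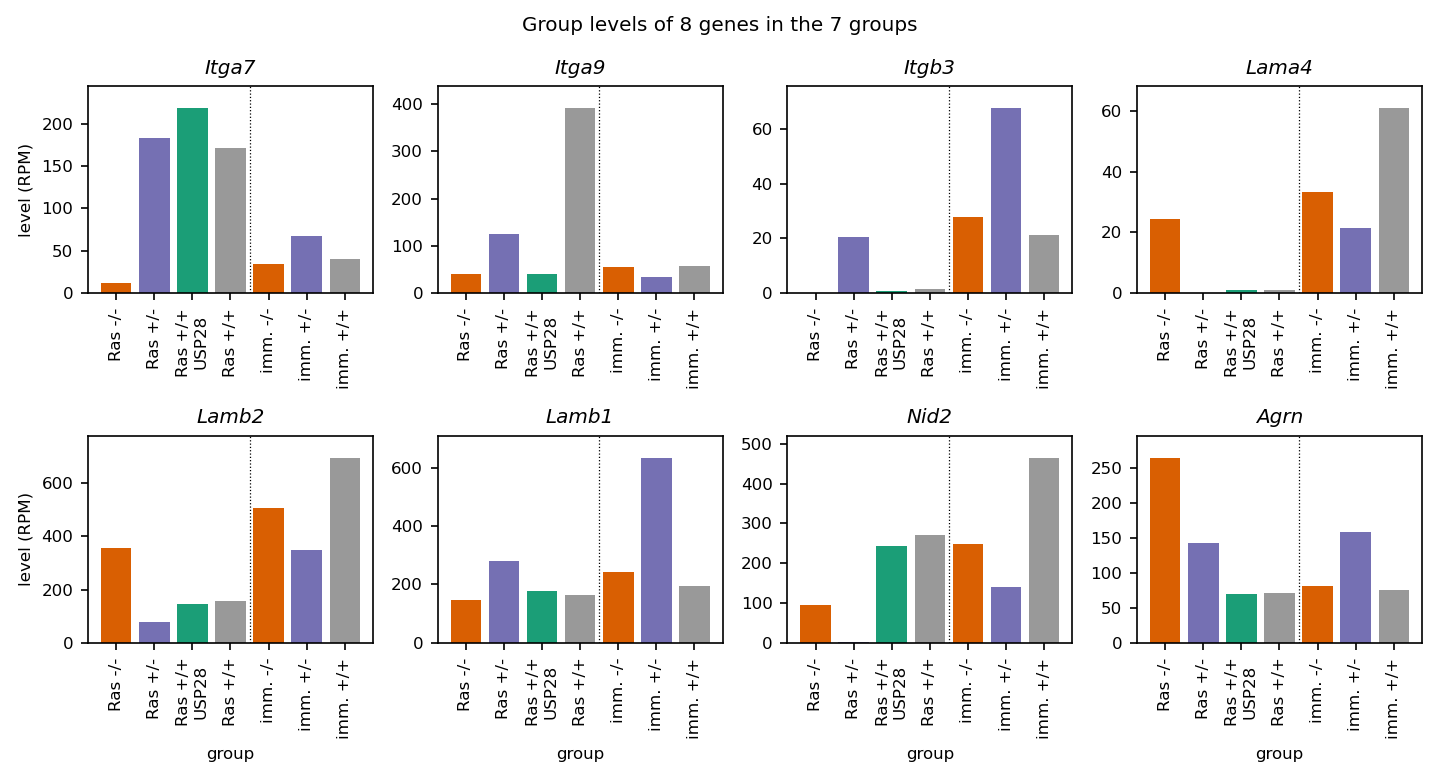
Level (RPM) of 8 genes in the 7 groups, chosen for display after their values were seen, with a dotted line between the Ras groups and the immortalized (imm.) groups. Bars are group values from 2 summed libraries (Ras) or 3 (immortalized) and carry no error, since the files hold none per library. Lama4 in Ras -/- cells stands at 24.4 RPM beside 0.966 RPM in Ras +/+ cells, and Agrn at 264 RPM beside 70.8 RPM.

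The -/- cells were also set against the +/- cells. In the Ras set 29 members were tested, and 7 were higher and 8 lower in -/- than in +/- cells, 51.7% beside 24% of all genes (12.5% higher, 11.5% lower). Besides those given above, Itga6 (log2 1.44), Itga8 (32 reads against 1), Lama2 (log2 1.26) and Agrn (log2 0.89) were higher in -/- cells. Itga9 (log2 -1.59), Itgb2 (log2 -2.59), Itgb7 (log2 -1.36) and Lamc3 (log2 -2.44) were lower. Their adjusted p-values from the Wald test ranged up to 0.0235, that of Lama2. In the immortalized set 2 of 32 were called, 6.25% beside 4.56% of all genes (1.36% higher, 3.2% lower), and both, Itgb4 and Lama1 (log2 -3.85, SE 0.78, adjusted p = 5.87e-05), were lower in -/- cells.

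The 2 sets share no libraries, so the effect of a genotype in the Ras set could be tested against that in the immortalized set. For -/- the Ras effect was above the immortalized one in 5 of 27 members and below it in 6, 40.7% beside 20.7% of all genes (11.4% above, 9.23% below). For +/- it was above in 1 of 27 and below in 8, 33.3% beside 13.3% of all genes (6.86% above, 6.4% below). Lama4 differed most for -/-: its log2 fold was 4.66 in the Ras set and -0.87 in the immortalized set. For +/- cells Itga8 and Nid2 differed most, with Nid2 at -8.00 in the Ras set and -1.72 in the immortalized set. The sets differ in Ras, in the number of libraries and in whatever cultures they came from, and these cannot be told apart.

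No member but Itga9 was called in the USP28-labelled group. Fold changes of the other 27 tested members ran from -0.95 for Itga11 to 0.35 for Itga7 on the log2 scale, and the 95% interval of Nid1, the next in rank, was -0.80 to -0.07 (log2 -0.43, SE 0.18, adjusted p = 0.703). Lama2 had a log2 fold of -0.85 (SE 0.38, adjusted p = 0.905). A p that misses the threshold does not show equal levels.

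The 7 genes never called, in the 5 comparisons with +/+ or in the 4 differences between them, were Itga1, Itga2, Itga11, Itgb6, Lama3, Lama5 and Lamc1. Not all of them were tested throughout. Itga2 and Itgb6 were under the level filter in the Ras comparisons with +/+, and Itga11 in that of Ras +/- cells. Itga1 and Itga2, both collagen receptor chains, ranged over 17.1 to 75.0 RPM and 0.0745 to 2.83 RPM.

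Other basement membrane genes, a list of 20 such as collagen IV chains and netrins, were called in both directions. In Ras -/- cells 4 were higher and 5 lower of 15 tested (median log2 0.27), beside 27.6% of all genes called, and in Ras +/- cells 5 higher and 2 lower of 15 (0.28), beside 34.1% of all genes. In the USP28-labelled group 1 was higher and 1 lower of 14 (-0.15), beside 1.09%. In immortalized -/- cells 0 were higher and 3 lower of 16 (-0.49), beside 4.21%, and in +/- cells 6 higher and 3 lower of 19 (0.81), beside 8.25%. Col4a6, a collagen IV chain, had 3.80 RPM in Ras -/-, 121 in Ras +/-, 72.1 in the USP28-labelled group and 74.8 in Ras +/+ cells, and 8.18 RPM in immortalized -/-, 234 in +/- and 19.2 in +/+ cells. It was lower in -/- than in +/+ cells in both sets (Ras log2 -4.30, immortalized log2 -1.24) and higher in +/- than in +/+ cells in both (Ras log2 0.69, adjusted p = 0.00511, immortalized log2 3.61). Smoc2, a matrix protein of the Sparc family, had 104 RPM in Ras -/-, 0.303 in Ras +/-, 7.82 in the USP28-labelled group and 30.3 in Ras +/+ cells. It was higher in Ras -/- (log2 1.78) and lower in Ras +/- (4 reads, adjusted p = 2.32e-48), USP28-labelled (log2 -1.95) and immortalized +/- cells (log2 -2.06). Npnt encodes nephronectin, the ligand of the Itga8 receptor, and had 7.96 RPM in Ras -/-, 101 in Ras +/-, 20.9 in the USP28-labelled group and 11.1 in Ras +/+ cells. It was higher in Ras +/- (log2 3.19) and USP28-labelled cells (log2 0.91, SE 0.24, adjusted p = 0.0125). Ntn1, a netrin, had 162 RPM in Ras -/-, 16.9 in Ras +/-, 55.7 in the USP28-labelled group and 58.9 in Ras +/+ cells, higher in Ras -/- (log2 1.46) and lower in Ras +/- (log2 -1.80), immortalized -/- (log2 -1.05) and immortalized +/- cells (log2 -2.14). Col18a1 was higher (log2 2.29) and Tinagl1 lower (log2 -2.0) in Ras -/- cells. Fras1, which anchors epithelia, had 7.97 RPM in Ras +/- and 0.175 RPM (2 reads) in Ras +/+ cells (adjusted p = 6.85e-19). Among immortalized cells Col15a1 was lower in -/- (log2 -1.89) and Col7a1, of anchoring fibrils, higher in +/- cells (log2 2.82).

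The 27 genes of the integrin adhesion complex link the receptors to actin. In Ras -/- cells 2 were higher and 6 lower of 25 tested (median log2 -0.29), beside 27.6% of all genes called, and in Ras +/- cells 2 higher and 13 lower of 25 (-0.52), beside 34.1% of all genes. In the USP28-labelled group 0 of 25 were called (0.08), beside 1.09% of all genes, and Nedd9 had the smallest p (log2 0.52, SE 0.21, adjusted p = 0.574). Lims2, a partner of Ilk, had 6.95 RPM in Ras -/-, 0.227 (3 reads) in Ras +/-, 12.5 in the USP28-labelled group and 13.1 in Ras +/+ cells and was lower in Ras -/- (log2 -0.91, adjusted p = 0.00664) and Ras +/- cells (adjusted p = 1.03e-27). Ilk, the integrin-linked kinase, had 179 RPM in Ras -/-, 79.8 in Ras +/-, 221 in the USP28-labelled group and 197 in Ras +/+ cells. It was lower in Ras +/- cells (log2 -1.30, SE 0.21, adjusted p = 1.29e-08), as was Tgfb1i1, a paxillin relative, with 121 RPM in Ras -/-, 40.7 in Ras +/-, 173 in the USP28-labelled group and 161 in Ras +/+ cells (log2 -1.99, SE 0.22, adjusted p = 8.03e-18). Tns1, a tensin, was higher in Ras +/- (log2 1.75) and in immortalized +/- cells (log2 1.52). In Ras -/- cells the tyrosine kinase Src (log2 -1.06), its substrate Bcar1 (log2 -1.05) and the tensin Tns3 (log2 -1.0) were lower, and the scaffold Nedd9 was higher (log2 1.26, adjusted p = 6.54e-07). In immortalized -/- cells 1 was higher and 0 lower of 26 (0.16), beside 4.21% of all genes, and in +/- cells 3 higher and 0 lower of 26 (0.23), beside 8.25%. Parvb, a parvin that binds Ilk, was higher in both, with 20.6 RPM in -/-, 39.0 in +/- and 8.44 in +/+ cells. Zyx, zyxin, was higher in immortalized +/- cells (log2 1.29, adjusted p = 0.0127).

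Among 16 integrin ligands, 5 were higher and 4 lower of 12 tested in Ras -/- cells (median log2 0.45), beside 27.6% of all genes called, and 3 higher and 6 lower of 12 in Ras +/- cells (-0.08), beside 34.1%. In the USP28-labelled group 0 were higher and 1, Col1a1 (log2 -0.73, SE 0.18, adjusted p = 0.00656), lower of 11 (-0.14), beside 1.09%. In immortalized -/- cells 1 was higher and 1 lower of 13 (-0.30), beside 4.21%, and in +/- cells 2 higher and 1 lower of 13 (-0.13), beside 8.25%. Vcam1, a ligand of Itga4 and Itga9 receptors, had 102 RPM in Ras -/-, 206 in Ras +/-, 31.4 in the USP28-labelled group and 34.7 in Ras +/+ cells and was higher in Ras -/- (log2 1.55), Ras +/- (log2 2.57) and immortalized +/- cells (log2 1.46). Spp1, osteopontin, had 378 RPM in Ras -/-, 299 in Ras +/-, 145 in the USP28-labelled group and 141 in Ras +/+ cells and was higher in Ras -/- (log2 1.42), Ras +/- (log2 1.09) and immortalized -/- cells (log2 1.11). Postn, periostin, had 300.4 RPM in Ras -/-, 0 in Ras +/-, 0.149 in the USP28-labelled group and 0.529 in Ras +/+ cells, and was higher in Ras -/- cells (adjusted p = 5.71e-124). It had 260 RPM in immortalized -/-, 138 in +/- and 1345 in +/+ cells and was lower there in -/- (log2 -2.37) and +/- cells (log2 -3.28). Edil3, a ligand of Itgav receptors, was lower in Ras -/- (log2 -4.10) and Ras +/- cells (log2 -3.24), and Thbs1, thrombospondin, was lower in Ras +/- cells (log2 -1.61). Icam1, a ligand of Itgb2 receptors, had 6.28 RPM in Ras +/- and 0.0881 RPM (1 read) in Ras +/+ cells (adjusted p = 2e-15). Fn1, fibronectin, was higher in immortalized +/- cells (log2 1.33).

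Other matrix receptors and integrin partners, 13 genes, had 5 higher and 1 lower of 12 tested in Ras -/- cells (median log2 0.18), beside 27.6% of all genes called, and 5 higher and 3 lower of 12 in Ras +/- cells (0.19), beside 34.1%. In the USP28-labelled group 0 of 12 were called (0.01), beside 1.09% of all genes, and Cd44 had the smallest p (log2 -0.52, adjusted p = 0.298). In immortalized -/- cells 0 of 13 were called (0.02), beside 4.21%, with Bcam nearest (log2 1.16, adjusted p = 0.0621). In +/- cells 2, Bcam (log2 2.95) and Cd151 (log2 1.22), were higher and 0 lower of 13 (-0.10), beside 8.25%. Cd44, a hyaluronan receptor, had 255 RPM in Ras -/-, 479 in Ras +/-, 815 in the USP28-labelled group and 1165 in Ras +/+ cells and was lower in Ras -/- (log2 -2.19) and Ras +/- cells (log2 -1.28). Sdc1, a heparan sulfate co-receptor, had 215 RPM in Ras -/-, 321 in Ras +/-, 81.4 in the USP28-labelled group and 88.7 in Ras +/+ cells and was higher in Ras -/- (log2 1.28) and Ras +/- cells (log2 1.86). Its relative Sdc3 was higher in Ras -/- (log2 3.06) and Sdc2 lower in Ras +/- cells (log2 -1.68). Cd47, a partner of Itgav receptors, was higher in Ras -/- (log2 1.47) and Ras +/- cells (log2 1.23). Of 6 further integrin genes of leukocytes and platelets, 4 were tested, and Itga2b alone was called in the comparisons with +/+. It was higher in Ras -/- (log2 1.11, SE 0.43, adjusted p = 0.0496), beside 27.6% of all genes called, and in Ras +/- cells (log2 1.88, SE 0.41), beside 34.1%. It had the smallest p of the 4 in immortalized -/- (log2 -0.60, adjusted p = 0.444), and Itgam had it in immortalized +/- (log2 -0.66, adjusted p = 0.824) and USP28-labelled cells (log2 0.43, adjusted p = 1).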

How the data were processed

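Poly(A) RNA of 17 libraries was sequenced on a Genome Analyzer IIx after preparation with either of 2 NEBNext kits, per the labels' protocols, which do not say which library had which kit. Per the submitters' processing notes, CASAVA, FastQC, Bowtie 0.12.8, the mm9 genome and edgeR were used; strand-aware counting is not given in the sources used here. Per the file headers, the authors deposited, for each comparison with +/+, a log2 concentration, a log2 ratio with +/+ on top, and a p-value (also an adjusted p-value for the Ras set). The files hold 0 columns of single libraries.

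From these values, group levels in RPM were rebuilt with Python 3.11.15, numpy 2.4.6, pandas 2.3.3 and scipy 1.17.1 and signs were turned so that a positive log2 fold means higher than in +/+. Low levels lay on steps of 1 read, 79.6% to 100% of those under 20 reads within 0.1 of a whole number, which gave depth and reads. The deposited p-values followed a single dispersion per comparison (correlation of z-scores 0.998 to 1.000; coefficients of variation 12.7% to 32.4%), so a gene's own spread does not enter them. SEs were computed from that dispersion and the reads. Calls used Benjamini-Hochberg adjustment over genes at a mean of at least 1 RPM, under 0.05. Differences between mutant groups and between sets were tested with a Wald test, 0.5 reads added. Between mutant groups the dispersions of both comparisons were added. Between sets each effect kept the dispersion of its own comparison, and the variances were added. Counting intervals cover 95% and counting error only. The procedure was tested on simulated data.

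IDs were matched to symbols for 86.9% of 37576 (immortalized) and 97.6% of 33440 (Ras) distinct IDs. Exon lengths and gene positions came from GENCODE M21 (GRCm38), and 12 members overlap exons of other genes. Every called member is named with its level, and of each other list up to 4 called genes with the smallest adjusted p in a comparison with +/+, or the 1 with the smallest p where none was called. Members, lists and tests were chosen with earlier results of these data known.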

Additional observations from a re-analysis of the deposited data

Results flagged for a closer look

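In 20 cases the effect of a genotype against +/+ in the Ras set differed from that in the immortalized set by the Wald test of the difference itself, which is given here as Ras minus immortalized on the log2 scale. For -/- cells the difference was negative for Itga3 (-1.15, adjusted p = 0.00441), Itga6 (-1.89, adjusted p = 7.16e-07), Itga7 (-3.67, adjusted p = 2.48e-22), Itga8 (-1.46, adjusted p = 0.0107), Itga9 (-3.18, adjusted p = 8.85e-19) and Itgb1 (-0.98, adjusted p = 0.0164). It was positive for Itgb5 (1.56, adjusted p = 3.61e-05), Itgb8 (1.54, adjusted p = 0.0141), Lama4 (5.47, adjusted p = 3.21e-21), Lamb2 (1.62, adjusted p = 1.43e-05) and Agrn (1.80, adjusted p = 1.69e-06). In Itga6 and Lama4 the -/- effect was called in both sets with opposite signs.

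For +/- cells the difference was negative for Itga6 (-2.93, adjusted p = 5.91e-09), Itga8 (-6.62, adjusted p = 5.91e-06), Itgav (-1.56, adjusted p = 0.00463), Itgb1 (-1.24, adjusted p = 0.0362), Itgb4 (-2.80, adjusted p = 0.00232), Lama2 (-2.25, adjusted p = 0.00124), Nid1 (-1.54, adjusted p = 0.00512) and Nid2 (-6.23, adjusted p = 2.81e-24). It was positive for Itgb3 (2.06, adjusted p = 0.00402). Lama2 in +/- cells was called lower in the Ras set and higher in the immortalized set.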

How the results depend on the processing

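No sign was reversed among the 86 called results of single members under the settings run. The filter, the threshold and the dispersion do not set the sign of a fold, so most settings could not have reversed one. Of 122 recomputed counts, 104 stayed within 1.5 times the reported one. Of the 18 others, 9 moved with the dispersion doubled. With it, immortalized -/- cells kept 0 higher and 0 lower members (2 and 3 reported), immortalized +/- cells 5 higher and 1 lower (8 and 2), Ras -/- cells 5 lower (8), Ras +/- cells 6 higher (10), the -/- difference between sets 3 lower (6) and the +/- difference 0 higher and 5 lower (1 and 8). An adjusted p under 0.01 left 0 higher and 0 lower in immortalized -/- and 5 higher in immortalized +/- cells. A filter of 5 RPM left 5 higher in immortalized +/- cells, 1 lower in immortalized -/- against +/- cells and 5 lower for the +/- difference between sets. Without a filter, immortalized -/- cells had 1 higher member and the +/- difference 2 higher. Centring on the median gene left 0 higher in immortalized -/- cells. There it also moved the split of all calls, to 146 higher and 568 lower beside the 215 and 490 reported. The cause of these shifts was not tested beyond what each setting changes. No paired analysis was possible because the files hold no values of single libraries, and for the same reason no library could be left out. Under the filter of 1 RPM, 7 members were not tested in Ras -/- and 6 in Ras +/- cells, and those with 1 to 3 reads in a group have wide counting intervals.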
